A study of Mus musculus with 2 samples.

Results

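The cells described here are pancreatic beta cells of wild-type mouse islets whose transcripts were richest in 5 immediate early genes: Fos, Jun, Junb, Egr1 and Ier2. Beta cells were taken as the 2629 droplet barcodes with at least 5610 unique molecular identifiers (UMIs, which count captured transcripts), at least 500 genes, at most 15% mitochondrial UMIs, an Ins1 plus Ins2 share from 35% to under 60% of UMIs, Gcg and Ppy each under 1.5% and Sst under 0.3%. The 262 of these cells with the highest summed share of non-insulin UMIs in the 5 genes are the members, out of 4541 barcodes that passed the UMI, gene and mitochondrial limits. The 1314 cells with the lowest share serve as the comparison and are called low-share cells, and the 1053 cells between the 2 sets are called intermediate cells. The members were chosen by the measured share of these 5 genes, so the genes' own levels are given as a description only.

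Immediate early genes are transcribed within minutes of a stimulus without new protein synthesis, and their messenger RNAs are short-lived. Fos and Jun proteins pair to form the transcription factor AP-1, Egr1 is a zinc finger transcription factor, and Ier2 encodes a small nuclear protein. In beta cells, glucose metabolism closes potassium channels, calcium enters, and calcium, cAMP and ERK signalling act on factors such as CREB and SRF that bind near the promoters of these genes. A second layer of early genes encodes phosphatases, RNA decay factors and inhibitors of NF-kB that end the response.

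The library came from islets of male wild-type mice aged 8 weeks that had been fasted for 12 hours, with no transgene, and was made with 10x Genomics 3′ version 2 chemistry. The other group of the study, also male, 8 weeks old and fasted for 12 hours, carries a miR-203 transgene, beta cell specific per the labels. Each group is 1 library, the labels do not say how many mice went into it, and the transgenic library was not analysed here. The labels' preparation text speaks of quick-frozen islets and TRIZOL, and then of sorting intestinal goblet cells. The goblet cell markers Muc2, Tff3, Clca1, Fcgbp, Zg16, Agr2, Spink4 and Spdef together made 3.74 counts per 1000000 non-insulin UMIs (CPM) in the members, with 1 of the 8 genes at 0. Because all cells come from 1 library there is no replicate and no test was run. Every 95% interval below covers counting error only, of UMIs for levels and ratios and of cells for shares of cells. None covers differences between mice or libraries. The labels name no stimulus.

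The members were more deeply counted than the cells they are compared with. They had a median of 31220.5 UMIs per cell against 20658.5 in low-share cells, and their median number of genes was 3900.5 against 3241. After each cell was thinned to 4000 non-insulin UMIs the medians were 1689 and 1726 genes, with 2 members and 7 low-share cells too shallow to enter. The median mitochondrial share was 2.34% in members and 3.63% in low-share cells, and the median insulin share was 52.1% and 49.5%. Levels below are therefore CPM, the UMIs summed over the cells of a set per 1000000 non-insulin UMIs, and genes that came within 1.5-fold once low-share cells were matched on UMIs per cell or on mitochondrial share are named with their group.

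The members carried the markers of beta cells. Members expressed Pdx1, a master transcription factor of beta cells, at 113 CPM, against 8.18 in alpha barcodes of the same library. Ucn3, a hormone made by mature beta cells, was at 583 CPM in members and 20.1 in delta barcodes. Slc2a2, the glucose transporter, stood at 178 in members and 7.57 in alpha barcodes. Gcg made a median of 0.157% of UMIs in members and 0.184% in low-share cells, Ppy 0.167% and 0.199%, and Sst 0.0142% and 0.0166%. Summed markers of other cells gave no excess for several types. These were 6452 CPM against 6457 in low-share cells for 10 alpha markers and 467 against 526 for 10 delta markers. They were 271 against 361 for 12 macrophage markers and 23.9 against 47.7 for 11 acinar markers. Pancreatic polypeptide cell markers (4398 against 5050) and erythroid markers (40.4 against 41.3) were not higher either. Higher sums were seen for 11 endothelial markers, at 72.8 against 45.1, and for 9 ductal markers, at 1985 against 1317, of which Clu, Krt7 and Krt8 made most and Krt8 was found at 1027 CPM in alpha barcodes as well.

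The share that defined the members had a wide spread over the beta cells. It was below 0.05% in 500 cells and from 0.05% to 0.1% in 784 cells. In narrower and wider bands above these, 109 cells lay from 0.15% to 0.2%, 118 from 0.3% to 0.4%, 190 from 0.4% to 0.6%, 159 from 0.6% to 0.8% and 172 from 1% to 1.5%. On a logarithmic scale the cells formed a high peak with few early transcripts and another, broader one that runs into the members without a break. Members ranged from 0.914% to 2.67% with a median of 1.19%, and low-share cells had a median of 0.0578% and none above 0.104%. The 5 members of lowest share lay from 0.914% to 0.916%, and the 5 cells just outside lay from 0.909% to 0.913%. There were 11 cells in the window with no UMI of the 5 genes.

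**Figure D1:**
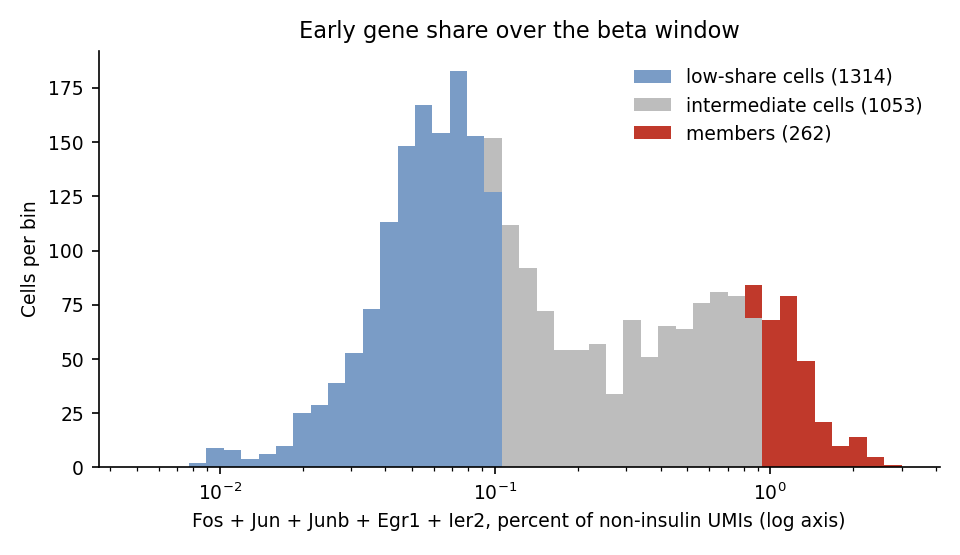
Number of beta cells (vertical axis) by the percentage of non-insulin UMIs in Fos, Jun, Junb, Egr1 and Ier2 (horizontal axis, logarithmic), with low-share cells in blue, intermediate cells in grey and the 262 members in red; the 11 cells without such a UMI are not drawn. The members form the right edge of the broader peak on the right, from 0.914% to 2.67%.

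Fos stood at 3590 CPM in members, 826 in intermediate cells and 71.1 in low-share cells. Jun stood at 3819, 1398 and 198, Junb at 2056, 689 and 170, Egr1 at 2303, 896 and 104, and Ier2 at 896, 238 and 45.9. Fos, Jun, Junb and Egr1 each had at least 1 UMI in every member, and Ier2 in all but 2. The members were chosen on the sum of these genes and had a median of 14880.5 non-insulin UMIs, so 1 UMI is a low bar. Jun gave the most UMIs of the 5 in 123 members, Fos in 113, Egr1 in 13, Junb in 12 and Ier2 in 1, with 7 ties given to the first in that order of the rule. The share of Fos among the UMIs of the 5 genes had a median of 27.2% over members, with 15.7% at the 10th percentile and 40.1% at the 90th. The cells were also ranked by the other 4 genes alone. Fos was then 3223 CPM in the top cells against 83.2, a log2 ratio of 5.28 (5.19 to 5.36). That ranking kept 224 of the 262 members, but it uses 4 of the 5 rule genes, so the overlap is largely set by the rule. Left out in the same way, Jun had a log2 ratio of 3.93, Junb 3.27, Egr1 4.16 and Ier2 4.05, with 234 to 250 members shared.

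The share of the lowest member was, by the rule, reached by 9.97% of the window, and it was also reached by cells outside it. These were 42 of 389 cells with insulin at 60% or more of UMIs (10.8%, exact binomial interval 7.89% to 14.3%) and 6 of 331 cells with insulin from 10% to under 35% (1.81%, 0.668% to 3.90%). None of 423 alpha barcodes reached it, with an exact binomial upper limit of 0.868%, and none of 112 delta barcodes, with an upper limit of 3.24%. The 5 genes made 0.0994% of all non-insulin UMIs in alpha barcodes, 0.133% in delta barcodes and 0.279% in free RNA, against 1.27% in members. Free RNA was taken from droplets with no more than 200 UMIs. The non-insulin total keeps Gcg, Ppy and Sst, which lowers the shares of alpha and delta barcodes. With Gcg, Sst, Ppy and Pyy also left out, the shares were 0.138% in alpha barcodes, 0.160% in delta barcodes and 1.28% in members. The counts of barcodes above use the non-insulin total, on which the highest alpha barcode had 0.750%. Median depth was 14896 UMIs in alpha and 8743 in delta barcodes, both shallower than the members.

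Outside the 5 genes, most of the highest ratios of members to low-share cells belonged to other early response genes. Of 6025 genes with at least 20 CPM over the window, 383 were over 1.5-fold higher in members (6.36% of those tested) and 579 were over 1.5-fold lower (9.61%). Set against the median gene (log2 -0.08), the counts were 518 and 391, and CPM of all UMIs they were 298 and 772. Against low-share cells matched on UMIs per cell they were 432 and 371. Of 117 early response genes listed outside the rule, 80 could be tested, and 43 of them were higher, 3 lower and 34 within 1.5-fold, with a median log2 ratio of 0.87 against -0.08 for all genes. The split of higher and lower genes as a whole turned with the scaling, and the early gene count did not: it was 43, 44 and 47 under the 3 settings just named. Of the 20 genes with the highest ratios outside the rule and insulin, 16 were in the early response lists, which held 80 of the 6025 genes tested. The lists were chosen with earlier results of these data known, so these counts are a description and no independent support.

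**Figure D2:**
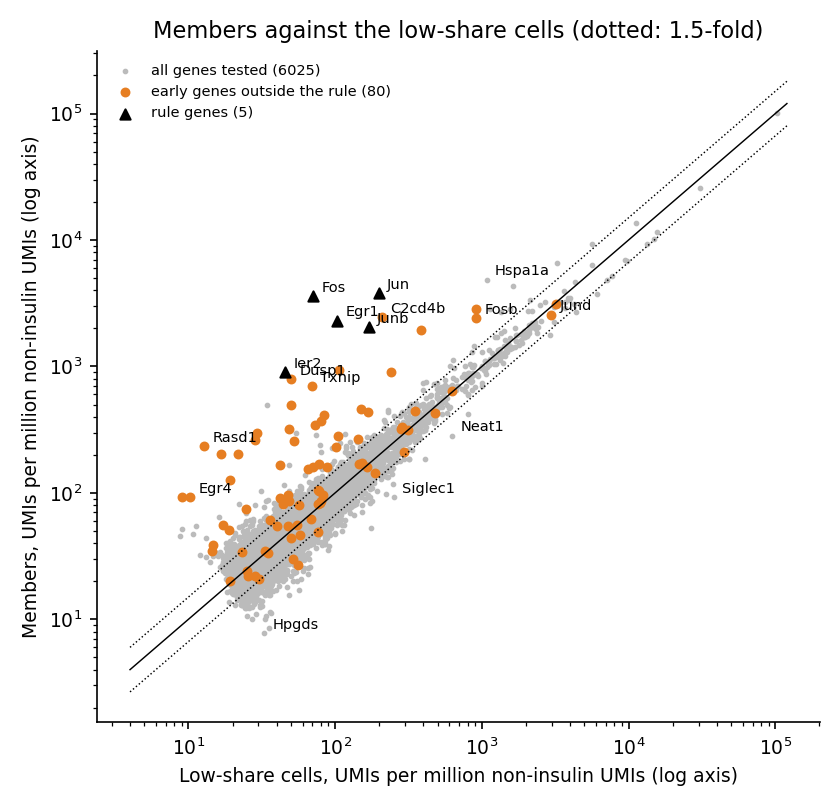
Summed level of each of 6025 genes in members (vertical) against low-share cells (horizontal), both in CPM on log axes; triangles are the 5 rule genes, orange points the 80 tested early genes outside the rule, and dotted lines mark 1.5-fold. The orange points lie mostly above the upper dotted line at the left and centre, with Rasd1, Dusp1 and C2cd4b far from it and Jund below the diagonal.

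Transcription factors and activity-regulated genes of the early response were the first group. Of 22 tested members of this list, 14 were higher and none lower, where over all genes 6.36% were higher and 9.61% lower. The list's median log2 ratio was 1.17. Arc, an activity-regulated gene best known from neurons, stood at 296 CPM in members and 29.5 in low-share cells, a log2 ratio of 3.33 (3.17 to 3.50). Klf2, a zinc finger factor, stood at 204 and 21.6 (3.24, 3.04 to 3.43). Egr4, a relative of Egr1, stood at 93.0 and 10.3 (3.18, 2.90 to 3.47). Btg2, an antiproliferative cofactor, stood at 944 and 106 (3.15, 3.07 to 3.24) and, after thinning to 4000 non-insulin UMIs, was found in 95.0% of members and 32.1% of low-share cells. The depolarisation-induced factor Npas4 stood at 373 and 79.8 CPM (2.22, 2.11 to 2.34), the orphan nuclear receptor Nr4a1 at 347 and 73.3 (2.24, 2.13 to 2.36), and the Kruppel-like factor Klf6 at 412 and 84.3 (2.29). Nr4a2, a relative of Nr4a1, had 0.08, with an interval from -0.30 to 0.44, and Srf, which encodes the factor that binds serum response elements, had -0.48.

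The partners of Fos and Jun showed a different pattern from Fos and Jun themselves. Of 10 tested AP-1 subunits and partners outside the rule, 3 were higher and none lower, and the median was 0.22. Shares over all genes were 6.36% higher and 9.61% lower. Fosb stood at 2397 CPM in members, 2086 in intermediate cells and 915 in low-share cells, so that members were 2.62-fold above low-share cells (2.55 to 2.69) and 1.15-fold above intermediate cells (1.12 to 1.18). Fos, by the same measures, was 50.5-fold and 4.35-fold. Fosl1 had a log2 ratio of 1.40 and Atf3, a stress-induced partner, 1.20. Jund, a constitutively expressed Jun relative, stood at 2573 and 2957, a log2 ratio of -0.20 (-0.23 to -0.17).

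Most tested genes that end the response were higher too. In the list of early response inhibitors and RNA decay factors, 15 of 24 tested genes were higher and 3 lower, with a median of 1.03. Shares over all genes were 6.36% higher and 9.61% lower. Dusp1, the phosphatase that inactivates MAP kinases, stood at 797 CPM in members and 50.4 in low-share cells, a 15.8-fold difference (14.6 to 17.2). Its per-cell level had a 10th percentile of 203 and a median of 678 in members, while the median low-share cell had none and the 90th percentile was 152. These ranges did not meet. Zfp36, which promotes decay of AU-rich messenger RNAs including that of Fos, stood at 264 and 28.4 (9.30-fold). Tnfaip3 and Nfkbia, inhibitors of NF-kB that are also its targets, stood at 204 and 16.8 and at 1946 and 383. The 9 tested genes of the NF-kB and inflammatory list had a median of 0.09, with Cxcl10 at 1.04 and Birc3 at 0.83 higher and none lower. Gadd45g, a stress-response gene that acts on p38 and JNK kinases, stood at 898 and 241, and in members its per-cell level ran from 144 at the 10th percentile to 1989 at the 90th. Dusp5, a phosphatase of nuclear ERK, stood at 436 and 167. The 3 lower inhibitors were Nab1, a repressor of Egr proteins, at -1.04, Dusp16 at -0.79 and Gadd45a at -0.63, of which the last 2 were within 1.5-fold of cells matched on UMIs.

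The gene with the highest ratio outside the rule was Rasd1, a Ras-like G protein induced by glucocorticoids. It stood at 234 CPM in members, 62.9 in intermediate cells and 12.8 in low-share cells, 18.2-fold between the first and last (15.5 to 21.5). After thinning to 4000 non-insulin UMIs it was found in 45.4% of members (39.2% to 51.7%), 5.28% of low-share cells (4.13% to 6.63%) and 3.78% of alpha barcodes. The low-share cells thus lay near the level of a cell type in which the gene was almost absent. It belongs to the list of early response effectors. Of 24 tested, 11 were higher and none lower (over all genes 6.36% and 9.61%), with a median of 0.50. Others of this list were Gem, a small GTPase that restrains calcium channels, at 168 and 42.4 CPM (1.98), Rhob, a small GTPase of endosomes, at 462 and 149.5 (1.63), and the clock gene Per1, a CREB target, at 156 and 65.2 (1.25). Ppp1r15a, which restores translation after stress, did not differ by more than its counting error, at 313 and 316 (-0.01, -0.10 to 0.08).

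C2cd4b and C2cd4a, small C2-domain proteins whose human region is linked to type 2 diabetes risk, were both among the 20 highest. C2cd4b lies at chr9:67759437-67760930 on the plus strand of GRCm38 (mm10) and C2cd4a at chr9:67830489-67832330 on the minus strand, both protein-coding with 2 exons in GENCODE. C2cd4b stood at 2473 CPM in members, 764 in intermediate cells and 208 in low-share cells, an 11.9-fold difference (11.4 to 12.4). Its per-cell level ran from 873 at the 10th percentile to 4483 at the 90th in members, around a median of 2186, and from 0 to 486 around a median of 143 in low-share cells. Of the 262 members, 167 (63.7%) were also among the 262 beta cells with the highest C2cd4b share. Only 3 low-share cells (0.228%) were, and the highest cells made up 9.97% of the window. C2cd4a, at 93.5 and 9.03 CPM, had a log2 ratio of 3.37 (3.08 to 3.67).

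Txnip, the glucose-induced inhibitor of thioredoxin, stood at 700 CPM in members and 69.1 in low-share cells (3.34, 3.23 to 3.45), a 10.1-fold difference. Its relative Arrdc4 stood at 22.2 and 25.3, close to the floor of 20 CPM, and its interval included 0 (-0.19, -0.54 to 0.15). A role of glucose in these levels was not tested. Irs2, the adaptor of insulin and IGF1 receptors and a CREB target in beta cells, stood at 300 and 54.0 (2.47, 2.34 to 2.61). Phlda1 stood at 496 and 50.2 (3.30), and 8430408G22Rik, now named Depp1, a FOXO target gene, at 495 and 34.3 (3.85). The other genes among the 20 highest were Cited2 (2.72), Rgs16 (2.72), Rassf10 (2.51), Arl4d (2.37) and Irf1 (2.29).

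**Figure D3:**
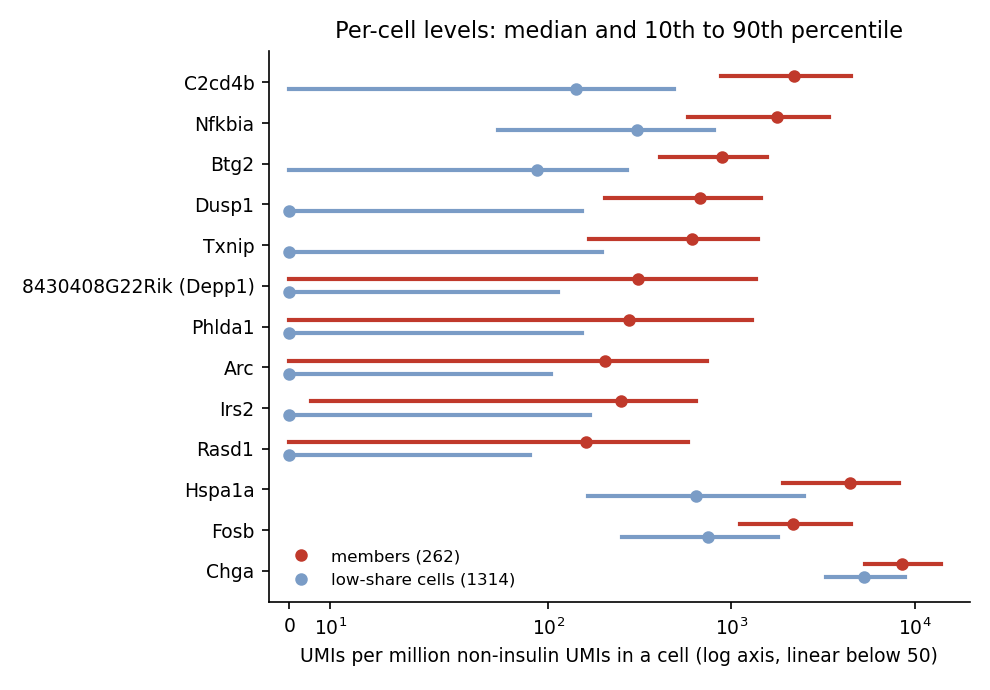
Level per cell of 13 named genes in members (red) and low-share cells (blue), in CPM of the cell on an axis that is logarithmic above 50; points are medians and lines run from the 10th to the 90th percentile. For C2cd4b, Btg2 and Dusp1 the lines do not overlap, while those of Fosb, Hspa1a and Chga do.

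The genes did not follow the rule share in the same way along the whole window. The beta cells were placed in 10 bins of 262 or 263 cells by the rule share, with the members as the first. C2cd4b was lower at each step, from 2473 CPM in the first bin to 1414, 762, 414 and 266 in the next 4, and then lay between 235 and 174. Fosb was 2397, 2237, 2297 and 2128 in the first 4 bins and 1557, 1143 and 968 in the 3 after them, so most of its difference lay below the top 4 bins. Hspa1a went from 4866 to 3088 over the first 4 bins and to 733 in the last. Neat1, a nuclear long noncoding RNA, went the other way, from 284 in the members to 518 in bin 5 and 644 in bin 10.

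**Figure D4:**
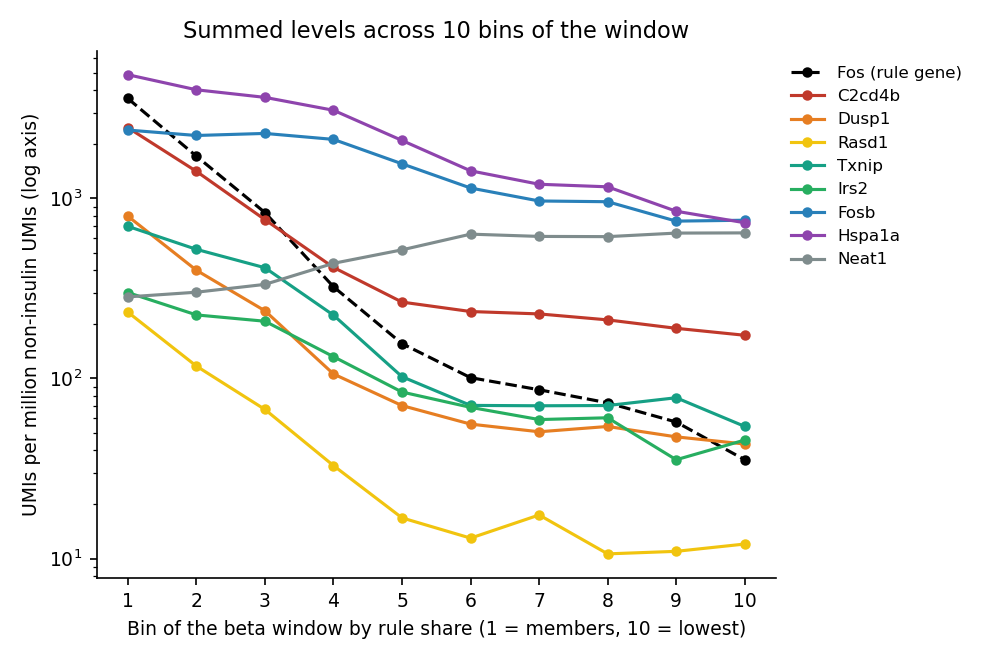
Summed level (vertical, CPM, log axis) of 9 genes in 10 bins of 262 or 263 beta cells ordered by the rule share (horizontal, 1 the members, 10 the lowest share). Fos, Dusp1, Rasd1 and C2cd4b drop from bin to bin over the first 5 bins, Fosb stays near 2200 over the first 4, and Neat1 is lowest in the members.

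The ratio of members to intermediate cells separates these patterns. It was 3.93 for Zfp36 (3.60 to 4.29), 3.71 for Rasd1 (3.38 to 4.07), 3.66 for Dusp1 (3.48 to 3.84) and 3.24 for C2cd4b (3.15 to 3.33). It was 2.09 for Txnip, 1.85 for Arc and 1.77 for Irs2. For Hspa1b it was 1.03 (1.01 to 1.05), whereas intermediate cells were 2.42-fold above low-share cells. Intermediate cells stood above low-share cells for both kinds, 4.91-fold for Rasd1, 3.67-fold for C2cd4b and 2.28-fold for Fosb. The first kind was higher again in members, and Fosb and Hspa1b were nearly as high in intermediate cells as in members. Hspa1a, nearly the same in sequence as Hspa1b, was further above intermediate cells, and the counting could divide reads between them.

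Cytosolic heat shock genes made up the second large group. Of 19 tested, 12 were higher in members and none lower, where over all genes 6.36% were higher and 9.61% lower. The median log2 ratio of the list was 0.65. Hspa1a, the inducible HSP70 chaperone, stood at 4866 CPM in members, 3296 in intermediate cells and 1076 in low-share cells (2.18, 2.15 to 2.21). Dnajb1, its co-chaperone, stood at 4314 and 1621 (1.41), and Dnajb4 at 240 and 78.4 (1.61). Hspa1b had 1.32, but its sequence is nearly the same as that of Hspa1a and the counting could divide reads between them. Hsp90aa1 (1.02) and Hsp90ab1 (0.88) were higher as well, while Bag3, another heat shock factor target, had -0.16. Of the 262 members, 75 (28.6%) were also among the 262 cells highest for Hspa1a, Hspa1b and Dnajb1 together. Those highest cells were 9.97% of the window and included 1.60% of low-share cells. Depth gave an overlap of similar size: 81 members (30.9%) and 15 low-share cells (1.14%) were among the 262 cells with the most UMIs.

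Other stress programmes had medians nearer to 0. Of 17 tested genes of the integrated stress response, 3 were higher and 1 lower (over all genes 6.36% and 9.61%). The median was 0.27. The higher ones were Ddit4, an inhibitor of mTORC1, at 1.73, Chac1 at 0.76 and Trib3 at 0.64, of which the last 2 came within 1.5-fold against all other cells of the window, at 0.47 and 0.44. Ddit3, which encodes CHOP, stood at 1293 and 863 CPM, a log2 ratio of 0.58 (0.54 to 0.63), just within the limit of 1.5-fold and beyond it (0.70) against cells matched on UMIs, and Atf4 had 0.36. The unfolded protein response had 0 higher and 2 lower of 24, with a median of -0.18, and the 2 were the sensors Eif2ak3 (-1.09) and Atf6 (-0.75). The first of these was within 1.5-fold of cells matched on UMIs per cell, and the second within 1.5-fold of cells matched on mitochondrial share. Of 16 genes of oxidative stress and metallothioneins, Prdx2 was higher (0.98) and Srxn1 lower (-1.17), and the median was 0.01.

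**Figure D5:**
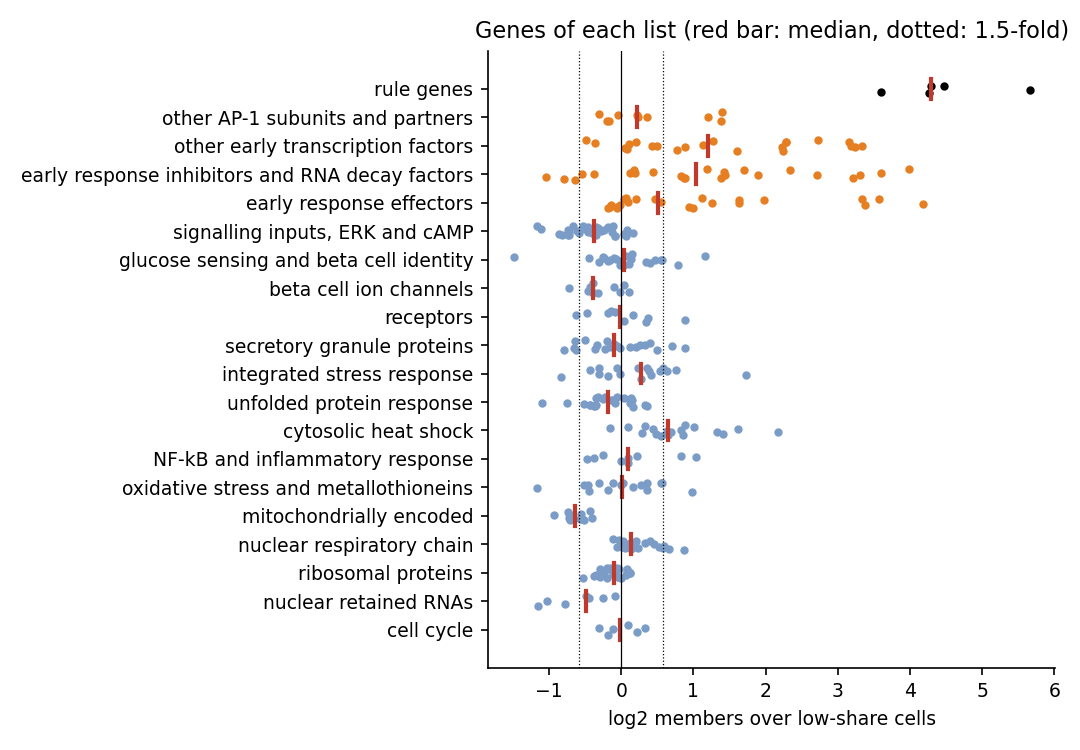
Log2 ratio of members over low-share cells (horizontal) for each tested gene of each list (rows), with the list's median as a red bar and dotted lines at 1.5-fold. The early response lists and cytosolic heat shock extend to the right, while the medians of signalling inputs, mitochondrially encoded genes and nuclear retained RNAs lie to the left of 0.

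Genes that carry the signal to early genes were not higher in members. Of 35 tested signalling genes of the ERK, cAMP and calcium routes, 0 were over 1.5-fold higher and 10 were lower, with a median log2 ratio of -0.37, where over all genes 6.36% were higher and 9.61% lower at a median of -0.08. The lowest were the ETS factors Etv5 (-1.17) and Elk4 (-1.12). The highest were Crtc2, a coactivator of CREB, at 0.16 (-0.22 to 0.52) and the kinase Map2k2 at 0.08 (-0.06 to 0.22). Of 11 tested beta cell ion channels 0 were higher and 1 lower, with a median of -0.38. Abcc8, the sulfonylurea receptor, stood at 263 and 245 CPM (0.10).  Of 10 tested receptors, the purine receptor P2ry1 was higher (0.88, 0.63 to 1.13) and Igf1r, the IGF1 receptor, lower (-0.63). Igf1r was within 1.5-fold of cells matched on UMIs or on mitochondrial share, and P2ry1 had 0.40 in cells of 15000 to 30000 UMIs.

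Beta cell identity genes had a median ratio near that of all genes. Of 23 tested genes of glucose sensing and identity, 2 were higher and 1 lower, where over all genes 6.36% were higher and 9.61% lower. The median of the list was 0.03, against -0.08 for all genes. Isl1, an islet transcription factor, stood at 139 and 62.5 CPM (1.16, 1.00 to 1.31), and Rfx6, another, at 38.1 and 22.1 (0.78, or 0.34 against cells matched on UMIs). Hnf4a was the lower gene, at 20.9 and 58.8 (-1.49, -1.83 to -1.17). Pcsk1, the proinsulin convertase, stood at 79.3 and 56.2 CPM (0.49). Pdx1 (0.47), Ucn3 (0.40), Nkx6-1 (0.34), Slc2a2 (0.15) and Slc30a8 (-0.02) were within 1.5-fold. Iapp, the amylin precursor, made a median of 4.79% of UMIs in members and 5.09% in low-share cells.

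Genes of the insulin granule went both ways. Of 21 tested, 2 were higher and 4 lower, with a median of -0.10, where over all genes 6.36% were higher and 9.61% lower. Chga, the granule core protein chromogranin A, stood at 9213 CPM in members and 5631 in low-share cells, 1.64-fold (1.62 to 1.66), and Rab3a, a GTPase of granule docking, at 121 and 66.0 (0.88). The 4 lower genes were Cplx2 (-0.80), Snap25 (-0.66), Pam (-0.63) and Syt7 (-0.62). Chga was within 1.5-fold of cells matched on mitochondrial share, and Rab3a, Cplx2, Snap25, Pam and Syt7 were within 1.5-fold of cells matched on UMIs.

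Mitochondrial transcripts were lower, and nuclear genes of the respiratory chain were not. Of 12 tested mitochondrially encoded genes, 6 were lower and none higher, where over all genes 9.61% were lower and 6.36% higher. The median of the 12 was -0.64. The lowest was mt-Nd3, at 423 and 810 CPM (-0.94), and the highest was mt-Nd5, at -0.40. Among 25 nuclear respiratory chain genes 3 were higher and none lower, led by Uqcrc2 (0.87) and Ndufv1 (0.66), with a median of 0.14. The 262 cells with the highest mitochondrial share were 9.97% of the window. Of these, 5 were members (1.91% of members) and 186 were low-share cells (14.2% of low-share cells). All of mt-Nd3, Uqcrc2 and Ndufv1 were within 1.5-fold once low-share cells were matched on UMIs. Ribosomal protein genes, 26 tested, had 0 higher and 0 lower with a median of -0.10, and the 6 tested cell cycle genes also had 0 and 0.

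Most of the genes with the lowest ratios had low levels in both sets. Hpgds, a prostaglandin D synthase, stood at 7.73 and 33.0 CPM (-2.09, -2.67 to -1.57) and 5730559C18Rik at 8.48 and 35.7 (-2.07). Sgms2, a sphingomyelin synthase, stood at 52.8 and 175 (-1.73, -1.94 to -1.53), and Siglec1, a sialic acid binding lectin known from macrophages, at 93.0 and 251 (-1.43, -1.59 to -1.28). Siglec1 was at 155 CPM in free RNA droplets and 11.2 in alpha barcodes, and the macrophage markers C1qa (-0.56) and Cd74 (-0.40), within 1.5-fold here, were at -0.85 and -0.82 against cells matched on UMIs. Rfx3, an islet transcription factor, stood at 15.7 and 48.4 (-1.62). The others of the 15 lowest were Osbpl3, Dock10, Plet1, Sgk2, Cck, Fam83g, Foxn3, Sowahb and Ppp1r12b, all between -1.73 and -1.41, and Hnf4a. Cck was one whose sign turned: in thinned cells it was found in 6.54% of members and 5.89% of low-share cells, in cells of 15000 to 30000 UMIs its log2 ratio was 0.16, and against cells matched on UMIs it was -5.14. Of 7 tested nuclear retained RNAs 3 were lower and none higher, where over all genes 9.61% were lower and 6.36% higher. The 3 were Neat1 (-1.15, -1.24 to -1.06), Mirg (-1.03) and Kcnq1ot1 (-0.78, or -0.42 against cells matched on UMIs).

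The highest genes were short genes with few exons. In GENCODE the 20 highest genes outside the rule had a median span of 3354 bases and a median of 2 exons, and 12 of the 20 had 1 or 2 exons. Over all 6019 tested genes with a position the medians were 23123 bases and 7 exons, and 13.7% had 1 or 2 exons. The 378 genes over 1.5-fold higher outside the rule had a median span of 10476 bases with 5 exons, and the 579 lower genes one of 57024 bases with 12. The rule genes, which set the choice of cells, had a median of 3384 bases. Length as a property of the genes was described here and not tested against the differences.

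Promoters of early genes are known to carry elements bound by CREB and by SRF. The 250 bases before the RefSeq start are printed for the rule gene Fos and for 3 of the 20 highest genes, which hold different elements. Capitals mark TGACG, its complement CGTCA or the full palindrome TGACGTCA (the cAMP response element, CRE, bound by CREB) in Fos, Dusp1 and Btg2, and a CArG box (bound by SRF) in Zfp36. All are from RefSeq on GRCm38.p6 and are written 5′ to 3′ on the strand of the gene.
Fos, chr12:85473640-85473889, plus strand: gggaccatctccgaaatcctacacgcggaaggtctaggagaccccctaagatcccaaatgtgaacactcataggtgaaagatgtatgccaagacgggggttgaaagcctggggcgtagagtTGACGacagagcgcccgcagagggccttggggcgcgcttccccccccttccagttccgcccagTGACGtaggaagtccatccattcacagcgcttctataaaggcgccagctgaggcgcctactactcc
Dusp1, chr17:26508473-26508722, minus strand: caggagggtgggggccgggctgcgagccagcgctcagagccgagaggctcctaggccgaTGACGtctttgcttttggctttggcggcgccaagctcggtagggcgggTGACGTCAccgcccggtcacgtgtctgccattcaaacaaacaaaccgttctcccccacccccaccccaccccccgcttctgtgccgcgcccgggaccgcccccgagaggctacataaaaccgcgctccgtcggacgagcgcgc
Btg2, chr1:134079156-134079405, minus strand: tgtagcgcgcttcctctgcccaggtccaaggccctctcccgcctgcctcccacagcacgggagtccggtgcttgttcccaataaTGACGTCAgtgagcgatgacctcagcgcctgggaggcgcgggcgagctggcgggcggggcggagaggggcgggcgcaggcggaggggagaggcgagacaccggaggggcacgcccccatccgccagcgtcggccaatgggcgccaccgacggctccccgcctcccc
Zfp36, chr7:28379229-28379478, minus strand: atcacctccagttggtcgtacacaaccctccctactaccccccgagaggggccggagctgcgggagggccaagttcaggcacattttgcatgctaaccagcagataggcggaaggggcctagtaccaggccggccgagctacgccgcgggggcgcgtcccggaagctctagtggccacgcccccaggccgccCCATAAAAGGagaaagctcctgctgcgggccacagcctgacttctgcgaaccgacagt

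The CRE palindrome TGACGTCA was present in 3 of the 16 genes among the 20 highest that have a promoter in the table, namely Dusp1, Btg2 and Arl4d (18.8%), against 4.06% of 4733 tested genes with a promoter and 1.77% of 27025 genes in the table. The short form TGACG, searched on both strands and contained in the palindrome, was present in 7 of 16 (43.8%), against 36.2% of tested genes and 19.8% of all genes in the table. It occurred in the 2 rule genes Fos and Junb of 3 with a promoter, in Fos at 129 and at 66 bases before the start. A CArG box was present in Zfp36 alone of the 16 (6.25%), 58 bases before the start, against 1.71% of tested genes. The AP-1 letters TGANTCA were in 1 of 16 (Tnfaip3), against 5.01%, and the Egr letters GCGNGGGCG in 4 of 16 (25%), against 12.2%. Neither C2cd4b nor Txnip held any of these in the window searched. The counts rest on few genes, and a match of letters is not a measured binding site.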

How the data were processed

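Single-cell RNA was counted in 1 wild-type islet library. Per the file headers, the authors deposited unfiltered, unnormalised UMI counts, with 27998 genes and 737280 barcodes. Per the submitters' processing notes, FastQC, Trimmomatic and the build mm10 were used. Aligner, counting tool and strand setting were not given in the sources used here. Of the 2 groups, the transgenic library was not analysed here.

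The UMI limit was computed as 10% of the depth at percentile 99 among the 3000 deepest barcodes. The limits on barcodes and the choice of members follow the rule given in the report. Members and gene lists were chosen with earlier results of these data known, so no list is independent evidence. Counts were summed over the cells of a set and given per 1000000 non-insulin UMIs (CPM), with exact Poisson intervals for levels and the exact conditional binomial interval for ratios. Genes entered at 20 CPM or more over the whole window. List medians used a pseudocount of 1. No test was run, because cells are not replicates. Named genes were the 8 markers given for these cells, the 20 highest and 15 lowest ratios outside the rule genes and insulin, and the 2 highest and 2 lowest tested genes of each list. Nr4a1, Nr4a2, Npas4, Atf3, Atf4, Ddit3, Hspa1b, Dnajb1, Slc2a2, Nkx6-1, Klf6, Gadd45g, Dusp5, Gem, Rhob, Per1, Ppp1r15a, Pcsk1, Gadd45a, Trib3, Pam, Syt7, Kcnq1ot1, Hsp90aa1 and Hsp90ab1 were added after their values were seen. A few genes of these rules are not reported here. Shares of cells with a UMI were taken after thinning to 4000 non-insulin UMIs with the seed 7. Shares of cells have exact binomial intervals, which treat the cells as independent draws though all come from 1 library. Alpha barcodes had Gcg at 10% or more, insulin under 10% and Sst under 1%, and delta barcodes Sst at 5% or more. No doublet caller was run, and the hormone limits of the rule removed barcodes with a second hormone. Gene positions came from GENCODE on GRCm38 and promoters from RefSeq on GRCm38.p6, where 4733 of 6025 tested genes matched by symbol. The ratio script was tested on simulated data. Python 3.11.15, numpy 2.4.6, scipy 1.17.1, pandas 2.3.3 and matplotlib 3.10.9 were used. There were 22 alternatives, including other floors, denominators, rankings, matched comparison cells, and leaving out each rule gene, of which 2 were chosen after seeing the data.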

Additional observations from a re-analysis of the deposited data

How the results depend on the processing

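The 43 early response genes higher in members stayed within 1.5 times that count under every one of the 21 alternatives that could change it, between 34 with a floor of 50 CPM, where 59 were tested, and 59 with no floor beyond 3 UMIs, where 115 were. The 383 genes higher in members became 176 with a floor of 50, 2094 with no floor, and 178 against all other cells of the window. The 579 lower genes became 208, 2749 and 309 in those settings, 358 with a wider choice of members and 371 against low-share cells matched on UMIs per cell. A floor changes how many genes are tested (2992 and 14876 in place of 6025), and the comparison with all other cells includes the intermediate ones. For the other changes the cause was not tested. Of 160 named genes, 95 lay beyond 1.5-fold, and 77 of them still did after matching on UMIs, 82 after matching on mitochondrial share and 81 against all other cells, where the log2 ratio of C2cd4b was 2.34, that of Dusp1 2.57 and that of Hspa1b 0.54. Rfx6, Rab3a, Chga, Snap25, Pam, Syt7, Chac1, Trib3, Igf1r, Ndufv1 and Gadd45a also came within 1.5-fold there. The ratio of Cck reversed, to 0.16, in cells of 15000 to 30000 UMIs, a setting chosen after seeing the data that left 108 members and 1168 low-share cells. The other such setting, cells of 2% to 4% mitochondrial UMIs, kept 173 and 739. Matching rested on as few as 10 low-share cells in a stratum of UMIs and 17 in one of mitochondrial share. No paired analysis was possible because each group is 1 library. With 1 library, differences between mice cannot be seen, and genes under 20 CPM were too thinly counted to describe.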
